A study of Bos taurus with 6 samples.

Results

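Histone lysine methyltransferases and demethylases are the enzymes that write and erase methyl groups on lysines of the histone tails. They were selected by gene name, as every row named KDM or KMT with a digit and a letter, SETD with a digit and at most a letter, or SMYD with a digit, together with EHMT1, EHMT2, SETDB1, SETDB2, SUV39H1, SUV39H2 and DOT1L. This gave 44 of the 32183 listed genes, 29 of them methyltransferases or relatives with a SET or SMYD name and 15 demethylases with a KDM name. NSD1, KDM4D and KDM5D were not analysed here. Expression was measured by RNA-seq in rumen epithelial primary cells (REPC), which were grown from the rumen lining of a Holstein bull calf aged 2 weeks that had received milk replacer only. The groups were 3 cultures harvested 24 h after addition of 5 mM butyrate to the medium and 3 cultures labelled as control. The study describes the controls as the state ahead of treatment, and no vehicle is named for them, so butyrate and the added hours in culture cannot be told apart. Since the cells came from 1 calf, p-values here measure the spread between cultures and not between animals.

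Methylation of histone lysines marks chromatin for use or for silence, depending on the residue. Trimethylated H3K4 marks active promoters, H3K9 methylation marks silent heterochromatin, H3K36 and H3K79 methylation accompany transcription, and H4K20 methylation is tied to chromosome compaction and replication. Writers transfer the methyl group from S-adenosylmethionine, mostly through a SET domain. Erasers are either flavin-dependent amine oxidases (KDM1A and KDM1B) or iron- and 2-oxoglutarate-dependent Jumonji proteins. Butyrate, a fermentation product in the rumen, inhibits histone deacetylases, which work next to several of these enzymes in repressor complexes.

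Expression was given as FPKM, in which fragments are scaled by transcript length and by library size, so that levels can be compared between genes. Where 3 values are listed for a group, they are those of its replicates 1 to 3 in that order. The confidence bounds in the tables imply between 5750384 and 6179746 fragments per culture, an approximation that counts each gene by the precision of its FPKM. The FPKM of the 44 genes summed to between 342 and 347 in control and between 345 and 361 after butyrate. The epithelial keratin KRT8 lay between 1309 and 1416 FPKM in control, whereas the epithelial adhesion gene EPCAM was low, between 0.406 and 0.737. The mesenchymal genes VIM (2411 to 2530) and COL1A1 (1109 to 1173) were also high in control, while the leukocyte gene PTPRC and the endothelial gene CDH5 were listed at 0 in all 6 cultures. Of the marker lists, 7 of 10 tested epithelial genes were higher after butyrate and 1, KRT5, was lower (log2 fold change -0.17, limma, adjusted p = 0.0323), and 8 of 8 tested fibroblast genes were higher. Their summed FPKM went from 3322-3466 to 6652-6696 and from 4356-4512 to 6374-6715, respectively. Of 3 tested immune markers 2 were higher, and of 2 tested endothelial markers both were, with summed FPKM of at most 14.3 and 8.43. Over all tested genes 32.5% were higher and 25.9% lower by the same limma threshold, an adjusted p under 0.05. The part of cell composition in the values below was not tested. In bulk RNA, fewer cells of a type and less RNA per cell cannot be told apart.

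After butyrate, 10 of the 43 tested genes were higher and 11 were lower at an adjusted p under 0.05 (limma on log2(FPKM + 0.1), Benjamini-Hochberg adjustment over all 15813 genes tested). That is 23.3% and 25.6% of them, where 32.5% and 25.9% of all tested genes were called in the same directions, so the share called was not above that background in either direction. SMYD1 was listed at 0 in every culture and could not be tested. The split depended on the scaling, with 12 higher and 8 lower after rescaling to a common total (TPM) and 10 higher and 15 lower by quantile normalization. These scalings moved the median log2 fold change of all genes from 0.10 to 0.23 and to -0.02, respectively, and the 21 called genes had the same direction, also relative to that median, under both. The values of the groups did not overlap for 14 genes higher and 13 genes lower after butyrate, which is 32.6% and 30.2% against 36.1% and 28.9% of all tested genes. The stricter definition of a differentially expressed gene (DEG) takes its thresholds from the study's methods. It asks for a Bonferroni-adjusted p below 0.05 together with a change of more than 2 on the log2 scale. Here the p came from limma, whereas the study used Cufflinks, so its own DEGs can differ. Only SUV39H1 met this definition in limma, and SUV39H1 was lower. That is 2.33% of the tested members, where 1.51% of all tested genes were lower DEGs and 2.46% higher DEGs. The median absolute log2 fold change was 0.42 over the 43 genes and 0.57 over all tested genes. By class, of the 15 demethylases 4 were higher (26.7%) and 1 was lower (6.67%), at a median of 0.11 on the log2 scale. Of the 28 tested methyltransferases and relatives 6 were higher (21.4%) and 10 were lower (35.7%), with a median of -0.26. Over all tested genes the shares were 32.5% and 25.9% and the median was 0.10, so the share of demethylases called higher was not above that background.

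**Figure D1:**
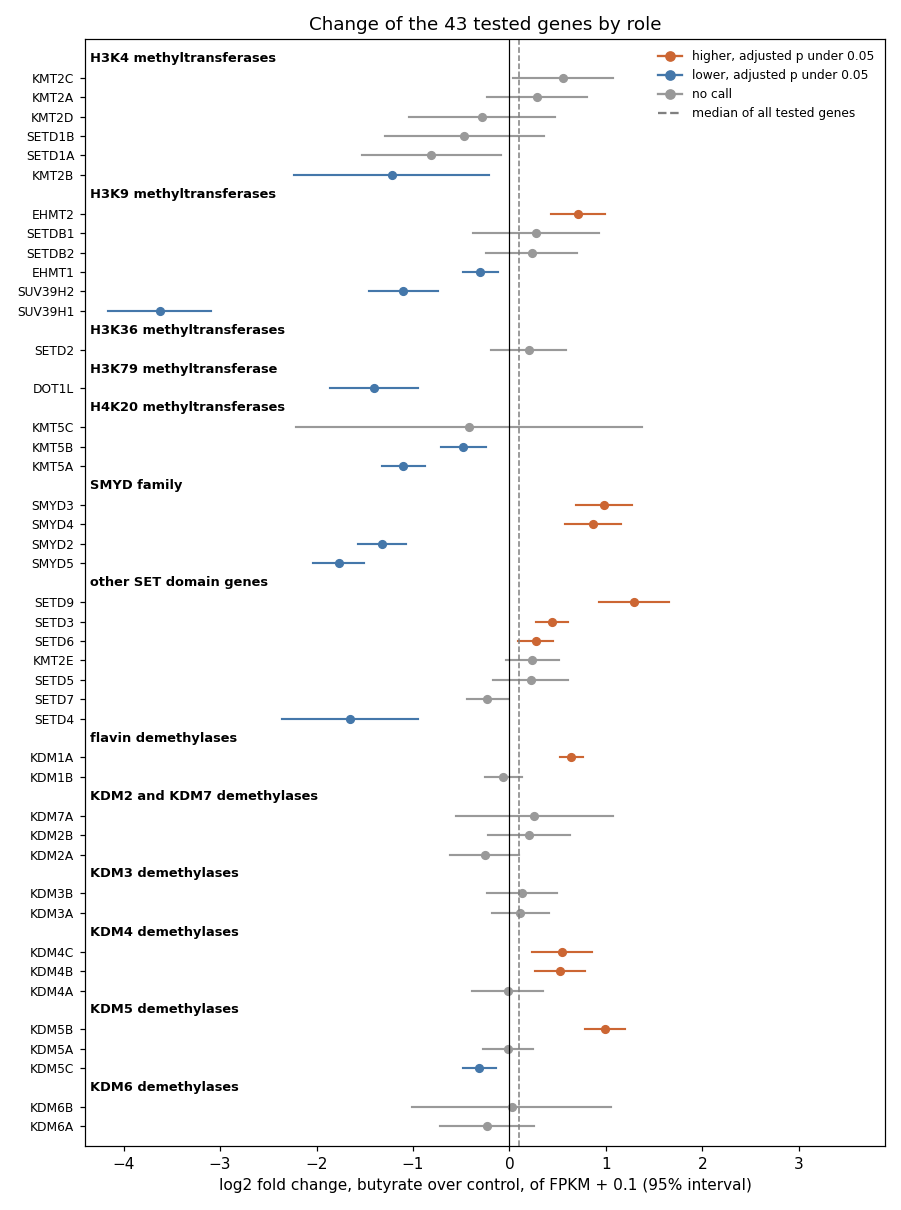
Log2 fold change of butyrate over control for each tested gene (horizontal axis, log2 of FPKM + 0.1), grouped by role, with the 95% interval from limma as a line. SUV39H1, at -3.62, lies far from the other genes, which lie between -1.77 and 1.29, and most demethylases lie close to 0 or above it.

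Levels spanned a wide range. KDM1A, the flavin-dependent eraser of H3K4 mono- and dimethylation that acts in the CoREST repressor complex, had the highest FPKM of the 44 genes in every culture, with 44.9, 47.9 and 47.1 in control and 70.8, 74.5 and 73.1 after butyrate. SETD3, an actin histidine methyltransferase despite its SET domain, ranked next in both groups, with 43.5, 40.9 and 38.0 in control and 55.8, 58.8 and 51.6 after butyrate. The values of KDM1A and SETD3 did not overlap within either group. KMT5A moved from rank 3 in control to rank 8 after butyrate, and SMYD5 from rank 7 to rank 22, whereas KDM5B moved from rank 12 to rank 6. At the other end, KMT5C, a writer of H4K20 methylation, was above 0 in 1 control and 1 butyrate culture only. KDM6B, an eraser of H3K27 methylation, stayed between 0.0667 and 0.228.

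Of the 6 writers of H3K9 methylation 3 fell and 1 rose, and SUV39H1 fell more than any other of the 43 tested genes. SUV39H1 (chromosome X, 91856090 to 91869000 in UMD3.1), which trimethylates H3K9 in pericentromeric heterochromatin, had an FPKM of 4.67, 4.10 and 4.42 in the control cultures and 0.262, 0.195 and 0.351 in the butyrate cultures, so the groups were far apart. Its mean went from 4.40 ± 0.289 (SD, n = 3) to 0.269 ± 0.0779 (SD, n = 3), and the log2 fold change was -3.62 ± 0.23 (SE, limma, Benjamini-Hochberg adjusted p = 3.02e-06 and Bonferroni-adjusted p = 0.00293). Only 99 of the 15813 tested genes fell further. The confidence bounds imply 83 to 104 fragments of SUV39H1 per control culture and 5 to 8 per butyrate culture. The log2 fold change was -4.01 with a pseudocount of 0.01 and -2.09 with a pseudocount of 1. Leaving out any single culture kept the log2 fold change between -3.78 and -3.47, but SUV39H1 then met the Bonferroni threshold in the fit without butyrate replicate 3 only (limma, Bonferroni-adjusted p = 0.0399), and not in the other 5, where the Bonferroni-adjusted p was between 0.0765 and 0.176.

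SUV39H2 (chromosome 13, 29813261 to 29836363), the second enzyme of this kind, had 6.13, 5.78 and 7.37 in control and 2.50, 3.20 and 3.14 after butyrate, again with no overlap. The log2 fold change was -1.10 ± 0.155 (SE, limma, adjusted p = 0.000337). EHMT1 and EHMT2 form the dimer that adds the first methyl groups to H3K9 in euchromatin, and they moved in opposite directions. EHMT1 (chromosome 11, 105429142 to 105519305), the more abundant partner, had 24.0, 25.3 and 28.1 in control and 21.9, 20.5 and 20.1 after butyrate, with a log2 fold change of -0.30 (limma, adjusted p = 0.0103), a call that was lost after rescaling to TPM (-0.18, limma, adjusted p = 0.0855). EHMT2 (chromosome 23, 27277596 to 27291503) rose from 5.27, 5.62 and 4.68 to 8.82, 7.68 and 9.20, with a log2 fold change of 0.71 ± 0.122 (SE, limma, adjusted p = 0.00105). SETDB1 and SETDB2, which silence repeats and other targets by H3K9 trimethylation, were not called, with 95% intervals of the log2 fold change of -0.38 to 0.93 and -0.24 to 0.71. Intervals here and below are not adjusted for the number of genes.

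KMT5A and KMT5B, writers of H4K20 methylation, and DOT1L, the writer of H3K79 methylation, were lower as well. KMT5A (chromosome 17, 54457611 to 54476577), which adds the single methyl group to H4K20 and whose protein is known to cycle with cell division, had 28.6, 26.1 and 33.1 in control and 13.4, 13.0 and 14.2 after butyrate. Its mean went from 29.2 ± 3.55 (SD, n = 3) to 13.6 ± 0.594 (SD, n = 3), the largest absolute loss of FPKM among the 44 genes, with a log2 fold change of -1.10 ± 0.0967 (SE, limma, adjusted p = 1.93e-05). KMT5B, which adds further methyl groups to the same residue, had 10.3, 10.7 and 10.6 in control and 8.26, 7.49 and 6.80 after butyrate and a log2 fold change of -0.48 (limma, adjusted p = 0.00348). DOT1L (chromosome 7, 22629626 to 22683877), which lacks the SET domain, had 3.69, 4.14 and 3.51 in control and 1.76, 1.27 and 1.13 after butyrate. The groups did not overlap, and the log2 fold change came to -1.40 ± 0.200 (SE, limma, adjusted p = 0.000356). SETD2, which trimethylates H3K36 behind RNA polymerase, had 2.31, 1.87 and 2.09 in control and 2.66, 2.38 and 2.20 after butyrate. These ranges overlapped, and the log2 fold change of 0.20 had a 95% interval of -0.19 to 0.59.

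A list of proliferation markers was lower as well. All 15 of them, MKI67, TOP2A and CCNB1 among them, were lower DEGs, where 1.51% of all tested genes were. Their median was -4.45 on the log2 scale, and their summed FPKM went from 729-766 in control to 35.8-39.0 after butyrate. The list was chosen with earlier results of these data known, and the study itself reports cell cycle genes as downregulated. The part of proliferation in the values of the 44 genes, SUV39H1, SUV39H2, KMT5A and DOT1L included, was not tested.

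The 6 H3K4 methyltransferases of the KMT2 and SETD1 families were low, with means between 0.0834 and 1.39 FPKM over both groups, and KMT2B alone was called. Their summed FPKM was 3.04-4.06 in control and 3.12-3.96 after butyrate, so the sum did not separate the groups. KMT2C, which with KMT2D places monomethylated H3K4 at enhancers, was the highest of them, with 0.873, 0.880 and 0.956 in control and 1.70, 1.22 and 1.25 after butyrate. The groups did not overlap, yet its log2 fold change of 0.56 missed the threshold (limma, adjusted p = 0.0624) and met it at 0.69 on the TPM scale, whereas quantile normalization brought it to 0.065 (limma, adjusted p = 0.83). KMT2B (chromosome 18, 46620813 to 46641031), a promoter-bound enzyme of the same family, was lower, with 0.199, 0.263 and 0.611 in control and 0.0936, 0.0811 and 0.0754 after butyrate and a log2 fold change of -1.22 ± 0.442 (SE, limma, adjusted p = 0.0419). The confidence bounds imply 7 to 26 fragments per control culture and 2 to 3 per butyrate culture. Its call was lost with the replicate number as a block and on leaving out any culture but control replicate 1, and the log2 fold change was -0.85 without control replicate 3. SETD1A and SETD1B, which produce most trimethylated H3K4 in other cells, had all butyrate values below all control values, with 0.468, 0.502 and 0.422 against 0.264, 0.182 and 0.222 for SETD1A. The bounds imply 11 to 14 fragments of SETD1A per control culture and 4 to 6 per butyrate culture, and 9 to 14 and 7 to 8 of SETD1B. They were not called, with log2 fold changes of -0.81 and -0.47 (limma, adjusted p = 0.0534 and 0.299). For KMT2A and KMT2D the 95% intervals were -0.23 to 0.81 and -1.04 to 0.48.

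The 4 SMYD genes above 0, whose products carry a SET domain split by a zinc finger and methylate both histones and other proteins, divided into opposite directions. SMYD5 (chromosome 11, 11207519 to 11219560) fell from 16.5, 14.8 and 18.1 in control to 4.46, 4.56 and 5.26 after butyrate, with a log2 fold change of -1.77 ± 0.115 (SE, limma, adjusted p = 3.20e-06). SMYD2 (chromosome 16, 70760233 to 70813706), which is known to methylate p53, fell from 17.4, 16.7 and 17.0 to 6.38, 7.83 and 6.18, with a log2 fold change of -1.32 ± 0.108 (SE, limma, adjusted p = 1.23e-05). Both passed the Bonferroni threshold but not the fold threshold of a DEG. SMYD3 (chromosome 16, 31589293 to 32333420) rose from 5.97, 8.07 and 6.85 to 15.2, 13.0 and 13.1, with a log2 fold change of 0.98 (limma, adjusted p = 0.000215). SMYD4 (chromosome 19, 23437024 to 23476448) rose from 2.81, 2.59 and 2.53 to 4.81, 4.99 and 4.88, with a log2 fold change of 0.86 (limma, adjusted p = 0.000449). None of these 4 genes had overlapping groups. Other annotated genes lie in part of these loci. SMYD2 overlaps RNPEP over 19434 bases, and the mean FPKM of RNPEP went from 41.8 to 101, opposite to SMYD2. SMYD5 overlaps PRADC1 by 8 bases, and the mean of PRADC1 went from 41.3 to 12.0. Whether reads were counted by strand is not given in the sources used here.

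The largest rise on the log2 scale was that of SETD9, one of the other SET domain genes. SETD9 (chromosome 20, 22333023 to 22341425), whose substrate is poorly known, had 1.61, 1.49 and 1.34 in control and 3.80, 3.78 and 3.70 after butyrate, and the log2 fold change was 1.29 ± 0.157 (SE, limma, adjusted p = 0.000133). The confidence bounds imply 22 to 27 fragments per control culture and 52 to 53 per butyrate culture. SETD9 overlaps LOC104975241 over 236 bases, and the mean FPKM of LOC104975241 was 0.760 in control and 0.684 after butyrate. SETD4 (chromosome 1, 150023412 to 150138367) fell from 3.53, 4.06 and 2.93 to 0.595, 1.38 and 1.33, with a log2 fold change of -1.65 ± 0.308 (SE, limma, adjusted p = 0.00173). The locus of SETD4 overlaps that of CBR1 over 53970 bases, and the mean FPKM of CBR1 was 14.4 in control and 14.3 after butyrate. SETD3 was higher after butyrate with a log2 fold change of 0.44 (limma, adjusted p = 0.000829), and SETD6, which methylates the NF-kB subunit RELA, with one of 0.27 (limma, adjusted p = 0.0169). SETD7, which methylates H3K4 and many other proteins, had 19.6, 19.99 and 17.5 in control and 17.5, 14.7 and 16.4 after butyrate, a change of -0.23 (limma, adjusted p = 0.0605) on the log2 scale that missed the threshold. SETD5 and KMT2E were not called either, with 95% intervals of -0.17 to 0.61 and -0.03 to 0.51.

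Among the demethylases, the rises were those of KDM1A, KDM5B, KDM4B and KDM4C. KDM1A (chromosome 2, 130370186 to 130436527), with the values given above, went from a mean of 46.6 ± 1.57 (SD, n = 3) to 72.8 ± 1.90 (SD, n = 3). The log2 fold change was 0.64 ± 0.0523 (SE, limma, adjusted p = 1.21e-05), with the smallest standard error among the 43 genes, and its gain of 26.2 FPKM was the largest. Its paralog KDM1B had 9.73, 9.64 and 9.57 in control and 8.94, 9.19 and 9.59 after butyrate, and the 95% interval of its log2 fold change was -0.26 to 0.13.

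The KDM5 enzymes remove methyl groups from trimethylated H3K4, and their order changed. KDM5B (chromosome 16, 55240172 to 55282633) rose from 8.25, 7.96 and 7.49 to 16.7, 16.2 and 14.7, with a log2 fold change of 1.00 ± 0.0911 (SE, limma, adjusted p = 2.43e-05). KDM5C (chromosome X, 96041772 to 96072803) had 15.8, 16.2 and 15.1 in control and 12.4, 12.5 and 13.0 after butyrate, with a log2 fold change of -0.31 (limma, adjusted p = 0.00668), and this call was lost after rescaling to TPM (-0.19, limma, adjusted p = 0.0536). The ratio of KDM5B to KDM5C within a culture, which a single scaling factor for the culture cannot move, was 0.523, 0.493 and 0.496 in control and 1.35, 1.30 and 1.13 after butyrate. KDM5C was thus the more abundant in every control culture and KDM5B in every butyrate culture. KDM5A had 6.48, 6.15 and 6.33 in control and 6.87, 6.36 and 5.60 after butyrate, with a 95% interval of the log2 fold change of -0.28 to 0.25.

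The KDM4 enzymes act on trimethylated H3K9 and H3K36. KDM4B (chromosome 7, 20307662 to 20413425) rose from 4.93, 4.84 and 5.71 to 7.40, 7.20 and 7.78, with a log2 fold change of 0.53 (limma, adjusted p = 0.00382). KDM4C (chromosome 8, 37979903 to 38319977) rose from 3.93, 3.1 and 3.48 to 5.34, 5.10 and 4.95, with a log2 fold change of 0.54 (limma, adjusted p = 0.00809). KDM4A, the highest of the 3 by mean FPKM, had 7.54, 7.32 and 8.10 in control and 9.71, 7.03 and 6.28 after butyrate, a wider spread after butyrate than in control, and its log2 fold change of -0.02 had a 95% interval of -0.39 to 0.35.

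None of the other 7 demethylases was called, and none reached an unadjusted limma p below 0.05. KDM2A, an eraser of H3K36 dimethylation that binds unmethylated CpG islands, had 4.53, 5.21 and 4.70 in control and 3.57, 4.89 and 3.68 after butyrate, with a 95% interval of the log2 fold change of -0.61 to 0.10. KDM3A, an eraser of H3K9 mono- and dimethylation, had 5.44, 5.37 and 4.62 in control and 6.20, 5.14 and 5.36 after butyrate, with an interval of -0.18 to 0.41. For KDM2B and KDM3B the intervals were -0.22 to 0.63 and -0.24 to 0.50. KDM6A, an X-linked eraser of H3K27 methylation, had 1.15, 1.28 and 1.23 in control and 0.900, 1.03 and 1.17 after butyrate, with an interval of -0.72 to 0.26. The intervals of KDM6B (-1.01 to 1.06) and KDM7A (-0.55 to 1.07) were the widest of these.

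**Figure D2:**
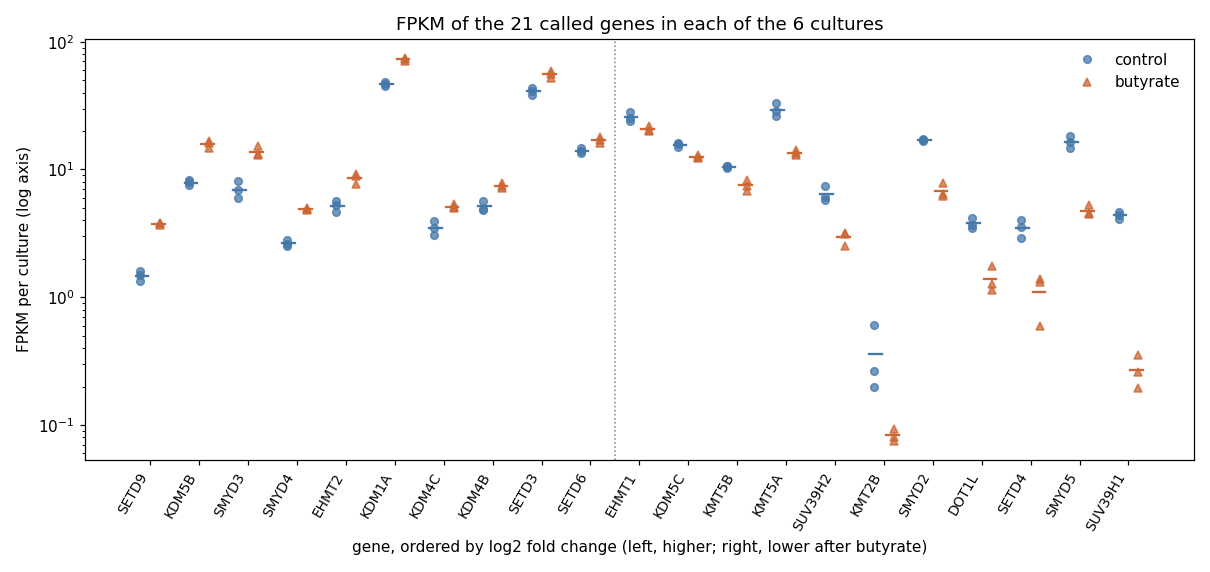
FPKM (vertical log axis) of the 21 called genes in each of the 3 control (circles) and 3 butyrate (triangles) cultures, with the group mean as a line. The groups do not overlap for any of these genes, and the gap is widest for SUV39H1, at 4.10-4.67 in control and 0.195-0.351 after butyrate.

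The share of each gene in the summed FPKM of its family does not change with a single scaling factor per culture, though it can under quantile normalization. With 3 cultures against 3, an exact permutation test cannot give a p below 0.1, so no share can pass 0.05 and the shares are given as values. SUV39H1 made up 40.8% ± 2.96 (SD, n = 3) of the SUV39H sum in control and 8.43% ± 2.33 (SD, n = 3) after butyrate (exact permutation test, two-sided, p = 0.1), the rest being SUV39H2. EHMT2 went from 16.8% ± 2.20 (SD, n = 3) to 29.1% ± 2.07 (SD, n = 3) of the EHMT pair. KMT5B went from 26.4% ± 2.22 (SD, n = 3) to 35.6% ± 3.07 (SD, n = 3) of the KMT5 sum. Each of these shifts exceeded the SD of both groups. In the SMYD family SMYD2 and SMYD5 together held most of the sum in control, with 39.5% ± 1.31 and 38.2% ± 2.85 (SD, n = 3). After butyrate SMYD3 held the largest share, 45.6% ± 3.34 (SD, n = 3), against 16.2% ± 2.68 (SD, n = 3) before. Among the KDM5 genes the share of KDM5B went from 26.4% ± 0.590 (SD, n = 3) to 45.6% ± 1.30 (SD, n = 3), and that of KDM5C from 52.4% ± 0.858 (SD, n = 3) to 36.3% ± 2.40 (SD, n = 3). In the KMT2 family, KMT2B went from 12.1% ± 4.92 (SD, n = 3) to 2.74% ± 0.143 (SD, n = 3) and KMT2C from 33.0% ± 5.26 (SD, n = 3) to 45.3% ± 2.26 (SD, n = 3). The shares within the KDM3 pair overlapped between the groups, with KDM3A at 70.4% ± 1.07 and 70.1% ± 2.83 (SD, n = 3; exact permutation test, two-sided, p = 0.9), and so did those within the SETDB, KDM6, KDM2 and SETD1 pairs.

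**Figure D3:**
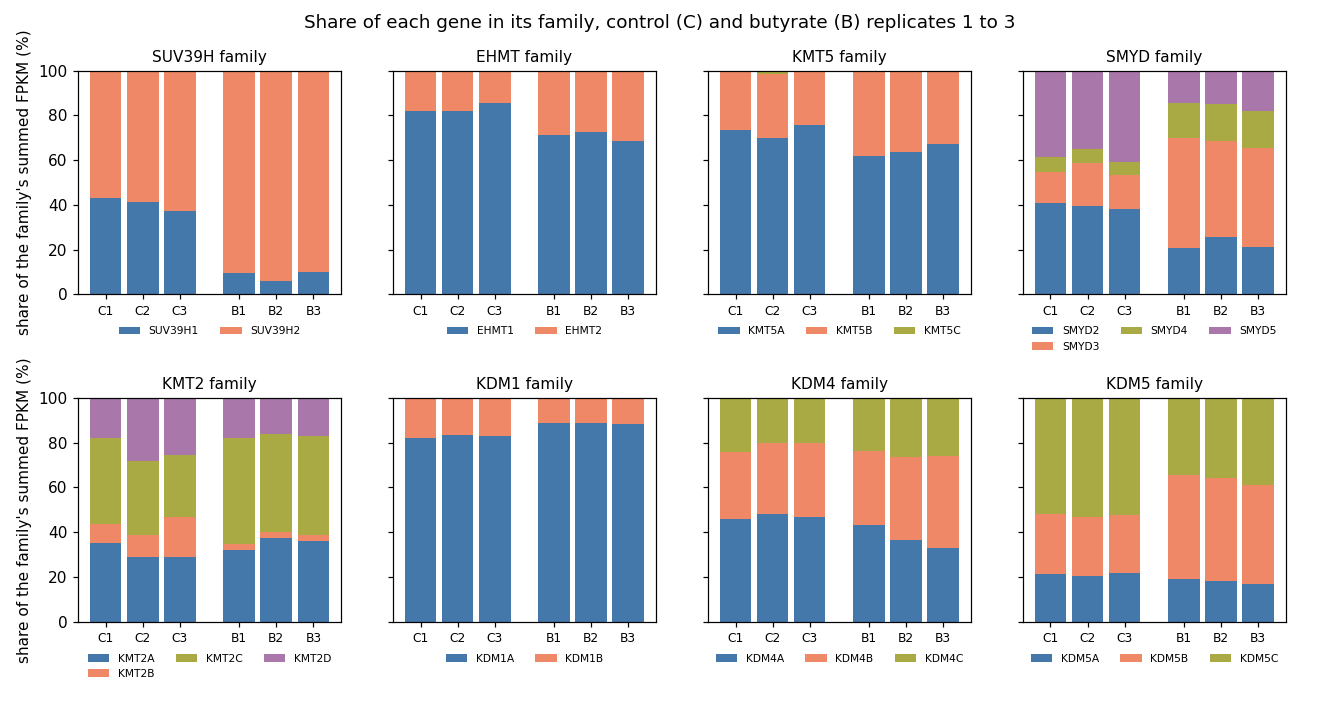
Share of each gene in the summed FPKM of its family (vertical axis, percent) in control (C) and butyrate (B) replicates 1 to 3. The order of the SMYD and KDM5 genes changes between the groups. In places the replicates of a group differ, as for KMT2B in control (8.76, 9.87 and 17.8%) and KDM4A after butyrate (43.3, 36.4 and 33.0%). KDM4B exceeds KDM4A in butyrate replicates 2 and 3 only.

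Summed over the class, demethylase FPKM was 118, 119.7 and 118 in control and 155, 154 and 151 after butyrate. The summed FPKM of the 29 methyltransferases and relatives went from 226 ± 3.14 (SD, n = 3) to 200.2 ± 6.49 (SD, n = 3). Both sums depend on how a culture is scaled. The FPKM of all listed genes summed to 678035-681912 in control and 619401-629037 after butyrate. The fall of the methyltransferase sum was not tested on a common total. A share is not moved by a single scaling factor. Demethylases held 34.4% ± 0.499 (SD, n = 3) of the sum of all 44 genes in control and 43.4% ± 0.515 (SD, n = 3) after butyrate. Without KDM1A the shares were 24.1% ± 0.291 (SD, n = 3) and 28.7% ± 0.278 (SD, n = 3), so the shift was smaller but the groups still did not overlap. For H3K9, the ratio of summed FPKM of 6 writers (SUV39H1, SUV39H2, EHMT1, EHMT2, SETDB1 and SETDB2) to that of 5 erasers (KDM3A, KDM3B and KDM4A to KDM4C) was 1.77, 1.89 and 1.94 in control and 1.17, 1.29 and 1.32 after butyrate. Every butyrate ratio was below every control ratio. For H3K4, 6 writers (KMT2A to KMT2D, SETD1A and SETD1B) were set against 5 erasers (KDM1A, KDM1B and KDM5A to KDM5C). SETD7 and SMYD3, which each exceed those writers in FPKM, were left out. The mean of SMYD3 went from 6.96 to 13.8 and that of SETD7 from 19.0 to 16.2. The ratio and its direction thus hold for the 6 listed writers only. This ratio was 0.0357, 0.0387 and 0.0474 in control and 0.0342, 0.0263 and 0.0274 after butyrate. Here too the groups were separate, although butyrate replicate 1 lay close to control replicate 1. The H3K4 writer sums overlapped, at 3.04-4.06 in control and 3.12-3.96 after butyrate. The eraser sums went from 85.1-87.9 to 116-119, and KDM1A was the largest part of them. Without KDM1A among the erasers, the H3K4 ratios of the groups overlapped. For H3K36, SETD2 was the only writer counted. WHSC1, which is described below, and SMYD2 were left out. The mean of SMYD2 went from 17.0 to 6.80 FPKM, above that of SETD2 in both groups, so the ratio holds for SETD2 only. The ratio of SETD2 to KDM2A, KDM2B and KDM4A to KDM4C was 0.0991, 0.0833 and 0.0849 in control. After butyrate it was 0.0911, 0.0901 and 0.0863, and the groups overlapped. These are ratios of RNA levels, and neither protein nor histone methylation was measured in them. The study profiled some methylation marks of REPC by separate ChIP-seq, which was not analysed here. H3K9 methylation was not among the REPC marks. Trimethylated H3K9 was profiled by the study in rumen tissue and in the bovine kidney cell line MDBK, also not analysed here. For REPC the study reports that, after butyrate, the genome share covered by trimethylated H3K4 and H3K27 generally grew, and that of monomethylated H3K4 shrank. A link between these marks and the RNA ratios was not tested.

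**Figure D4:**
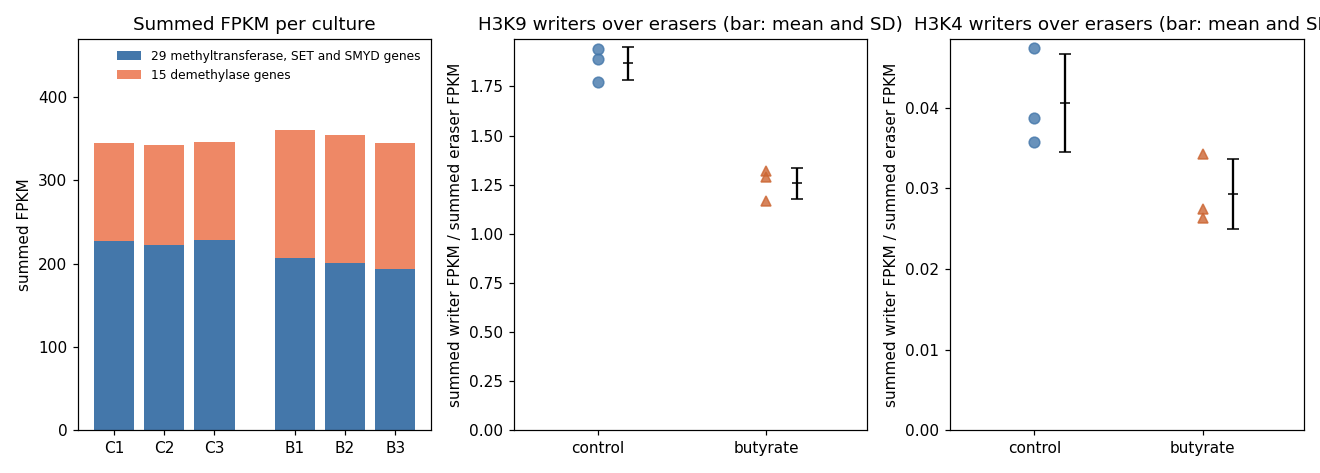
Left, summed FPKM of the methyltransferase and relative genes and of the demethylase genes in control (C) and butyrate (B) replicates 1 to 3. Middle and right, ratio of summed writer to summed eraser FPKM for H3K9 and H3K4 in each culture, with the mean and SD as bars. The total height changes little, from 342-347 to 345-361, while the demethylase part grows and both ratios are lower after butyrate.

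Genes that work with these enzymes were read from lists of partners. Of 12 tested subunits of the COMPASS and MLL complexes, which carry the H3K4 methyltransferases, 1 was higher (8.33%) and 7 were lower (58.3%), where 32.5% and 25.9% of all tested genes were. The median log2 fold change was -0.44 against 0.10 over all tested genes. The largest fall was that of HCFC1, from 4.87 ± 0.474 (SD, n = 3) to 1.29 ± 0.392 (SD, n = 3) FPKM (log2 fold change -1.87, limma, adjusted p = 0.000123). Of 8 tested partners of KDM1A in CoREST complexes 4 were higher (50.0%) and 0 lower by limma, with a median of 0.27. By an unadjusted p the lower count was 0, while the groups did not overlap for 5 genes higher and 2 genes lower. RCOR2, a CoREST scaffold, rose from 2.16 ± 0.357 (SD, n = 3) to 4.49 ± 0.479 (SD, n = 3) (log2 fold change 1.03, limma, adjusted p = 0.000877). Of 11 tested partners and readers of H3K9 methylation 2 were higher (18.2%) and 5 lower (45.5%), with a median of -0.19. CBX5, the heterochromatin protein that binds the mark written by SUV39H1, fell from 50.3 ± 4.10 (SD, n = 3) to 19.5 ± 2.84 (SD, n = 3) (log2 fold change -1.37, limma, adjusted p = 1.08e-05), and CBX3 had a log2 fold change of -0.95 (limma, adjusted p = 3.92e-06). Of 6 tested DOT1L partners MLLT3 alone was called (16.7%), with a log2 fold change of 1.21 (limma, adjusted p = 0.000114), opposite in sign to that of DOT1L. Of 14 tested enzymes of the methyl donor cycle and of demethylase cofactor supply 2 were higher (14.3%) and 7 lower (50.0%), with a median of -0.29. MTHFD1, a folate enzyme, fell from 43.2 ± 0.395 (SD, n = 3) to 9.15 ± 0.728 (SD, n = 3) (log2 fold change -2.23, limma, adjusted p = 1.31e-07). Of 10 tested enzymes of lysine methylation with other names 1 was higher (10%) and 3 were lower (30%). Among them WHSC1, an H3K36 methyltransferase related to NSD1, had a log2 fold change of -1.30 (limma, adjusted p = 0.000308).

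**Figure D5:**
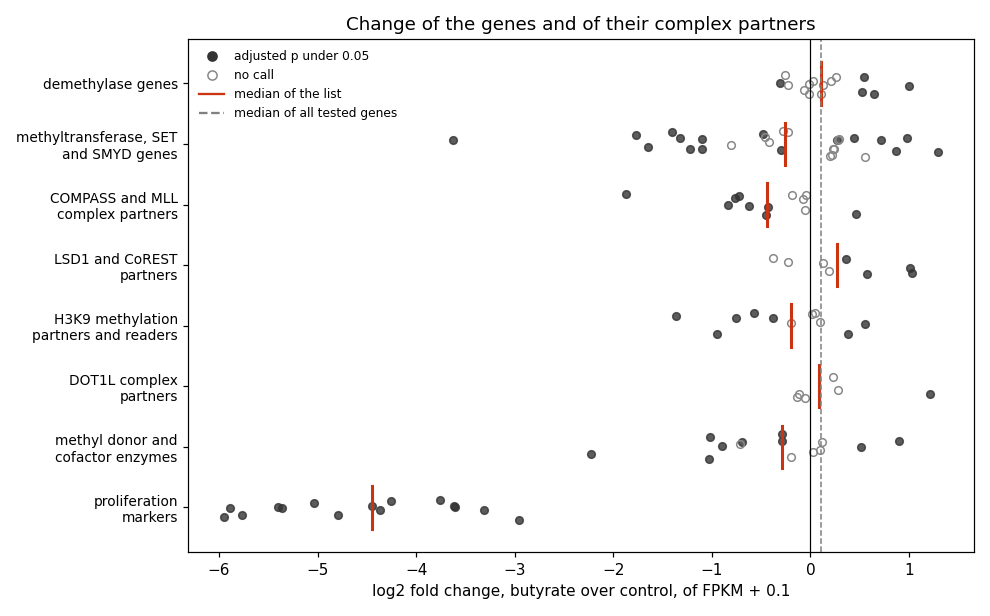
Log2 fold change of butyrate over control (horizontal axis, log2 of FPKM + 0.1) of each tested gene, one point per gene, for demethylases, methyltransferases and relatives, their complex partners, the cofactor enzymes and the proliferation markers. Filled points passed an adjusted p of 0.05 in limma. The list medians lie between -0.44 and 0.27, except that of the proliferation markers at -4.45.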

How the data were processed

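RNA from 3 butyrate and 3 control cultures of REPC was sequenced, and groups and replicate numbers were read from the sample labels. According to the labels and methods, reads were trimmed (Trim Galore 0.4.1), aligned (STAR) and filtered for unique mapping. The authors deposited 1 FPKM per gene and culture, made by Cufflinks, together with its confidence limits. The build is UMD3.1 per the submitters' processing notes. Rows were joined by name and position, starts are counted from 1, and each sequence took the chromosome that most of its genes have in RefSeq for ARS-UCD2.0, where all 44 symbols were found. Each confidence bound was turned into implied fragments as the square of 2 × FPKM over the distance to the upper bound, which covers counting error only. The 2 genes with a failed estimate were dropped.

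limma 3.58.1 (R 4.3.3), with its variance prior fitted to the mean level, was run without the replicate number on log2(FPKM + 0.1) of the 15813 genes averaging 0.1 or more. A count test was not applied to FPKM, and the scale understates changes of low genes. Same-numbered control and butyrate cultures had deviations correlated at 0.0228, -0.00431 and 0.00177 across genes, so the numbers did not pair them. Shares were compared by exact permutation (scipy 1.17.1). Members, lists and tests were chosen with earlier results of these data known. Values per culture are given at least for DEGs, for up to 8 called genes per direction with the largest change and separate groups, and for the top gene of each role. Partners are exemplified by at most 2 called genes with the largest change. Alternatives changed the pseudocount, the filter, the scaling, the variance trend, the fold threshold, the use of means, the replicate block and the cultures included.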

Additional observations from a re-analysis of the deposited data

How the results depend on the processing

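Over the alternatives, 9 to 12 genes were called higher and 8 to 15 lower. SUV39H1 was the 1 lower DEG in the analysis as reported. With each culture left out in turn the number was 0 to 1, and with a threshold of 1 in place of 2 on the log2 scale it was 4 (KMT5A, SMYD2, SMYD5 and SUV39H1). The 21 called genes had the same direction under every scaling, and median ratio scaling gave 10 genes higher and 13 lower. With the replicate block, 20 of the 21 calls were kept, with 10 higher, 10 lower and 1 lower DEG, and the block changed no call other than that of KMT2B, whose log2 fold change was -1.22 (limma, adjusted p = 0.0646). The numbers did not pair the cultures. KMT2B also lost its call with a pseudocount of 1 (-0.31) and after rescaling to TPM (-1.31), and SETD6 lost its call without control replicate 3 (0.25, limma, adjusted p = 0.0502). KMT2B was left out by a minimum mean FPKM of 1. SETD1A gained a call in 6 of the alternatives. All changes of sign concerned genes without a call. Quantile normalization gave -0.22 for SETDB1, -0.50 for KDM7A, -0.18 for KDM3B, -0.21 for SETDB2, -0.25 for KMT2A, -0.075 for KDM2B, -0.71 for KDM6B and -0.11 for SETD2, and rescaling to TPM gave 0.10 for KDM4A, 0.11 for KDM5A and 0.061 for KDM1B. With each culture left out in turn, the value ran from -0.20 to 0.11 for KDM4A, -0.0807 to 0.064 for KDM5A, -0.84 to 0.42 for KMT5C and -0.20 to 0.29 for KDM6B. Here the cause was not tested. Of the values recomputed for single genes, 588 kept their direction and their side of the threshold, 20 changed sign, 18 gained a call and 11 lost one. With a culture left out, the direction changed for 7 of the 33 family shares, all with overlapping groups (the SETDB, KDM3 and KDM6 pairs, and KMT5C), with SETDB1 running from -4.23 to 5.29 and KDM3A from -1.81 to 1.02 percentage points. The change of the log2 H3K36 ratio ran from -0.0412 to 0.0844. Depth limits KMT2B, KMT5C, KDM6B, SETD1A, SETD1B and the butyrate value of SUV39H1, each resting on few fragments.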
